A study of Mus musculus with 10 samples.

Results

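The genes described here make, break down or regulate liver glycogen. They were chosen by name, as Gys2, Pygl, Gyg, Gbe1, Ugp2, Ppp1r3b, Ppp1r3c and Ppp1r3g, and all 8 had a probe whose RefSeq accession names them, 10 probes in all. All 8 are among the 15089 genes tested. The livers came from male mice of the inbred C57BL/6J strain, which were bought at 7 weeks of age and given 1 week on chow. All mice then ate a 60% high-fat diet for 4 months. The control group (HFD control) received no ethanol, and the other group (HFD ethanol) had ethanol in the drinking water for the last 3 months, with a daily dose of 5 g/kg during the opening week and of 10 g/kg from then on. From each group of 10 mice, 5 were drawn at random, and each array holds the liver of 1 mouse. No group without the high-fat diet was analysed here, and the labels do not state whether the mice were fed or fasted at death.

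Glycogen is the liver's store of glucose. Ugp2 encodes the enzyme that makes UDP-glucose, the building block. Glycogenin (Gyg) starts each particle, the liver glycogen synthase (Gys2) lengthens the chains and the branching enzyme (Gbe1) adds branch points. The liver phosphorylase (Pygl) releases glucose 1-phosphate when glucose is needed. Ppp1r3b, Ppp1r3c and Ppp1r3g encode targeting subunits that bring protein phosphatase 1 to glycogen, where it activates the synthase and inactivates the phosphorylase. Insulin and glucagon act on this balance largely through phosphorylation of the enzymes, which an RNA array does not measure.

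All 6 hepatocyte markers were well above background on every array. The log2 of their summed signals, in which the brightest probes weigh most, ran from 11.65 to 12.12 in control and from 11.84 to 11.96 in ethanol livers. Between 55.5% and 59.1% of spots per array were well above background, and no spot was saturated. The 10 arrays lay on 3 slides. Slide 1 held 2 control arrays and 1 ethanol array, slide 2 held 2 control arrays, and slide 3 held 1 control and 4 ethanol arrays, so slide and treatment partly went together. Array column, the position across the slide, partly went with treatment too. Column 1 held only ethanol arrays and column 4 only control arrays. Models with array column took the column number as a linear term. A log2 signal below is the log2 of the processed intensity relative to the array's 75th percentile. Signals of different probes are not on a common scale and are not set against each other. In whole liver, fewer cells of a type and less RNA per cell cannot be told apart.

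Of the 8 glycogen genes, 6 had a higher mean with ethanol and 2 a lower mean, while 56.4% of all genes tested had a higher mean. None of the 8 passed the threshold of an adjusted p under 0.05 in limma with Benjamini-Hochberg adjustment over all genes, a threshold that 0.0199% of all genes passed (0.0133% higher and 0.00663% lower with ethanol). At an unadjusted p under 0.05 there were 2 of the 8, Ugp2 and Gys2, both higher with ethanol, against 13.3% of all genes in either direction and 7.98% in that direction. When blocked by slide, which partly went with treatment, none of the 8 kept an unadjusted p under 0.05. The count over all genes fell from 2003 to 805. The groups did not overlap for 1 of the 8, Ugp2, against 1.94% of all genes that were apart and higher with ethanol. None of the 8 lay apart and lower, against 1.11% of all genes. The median log2 fold change of the 8 genes was 0.27, beside 0.03 for all genes.

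**Figure D1:**
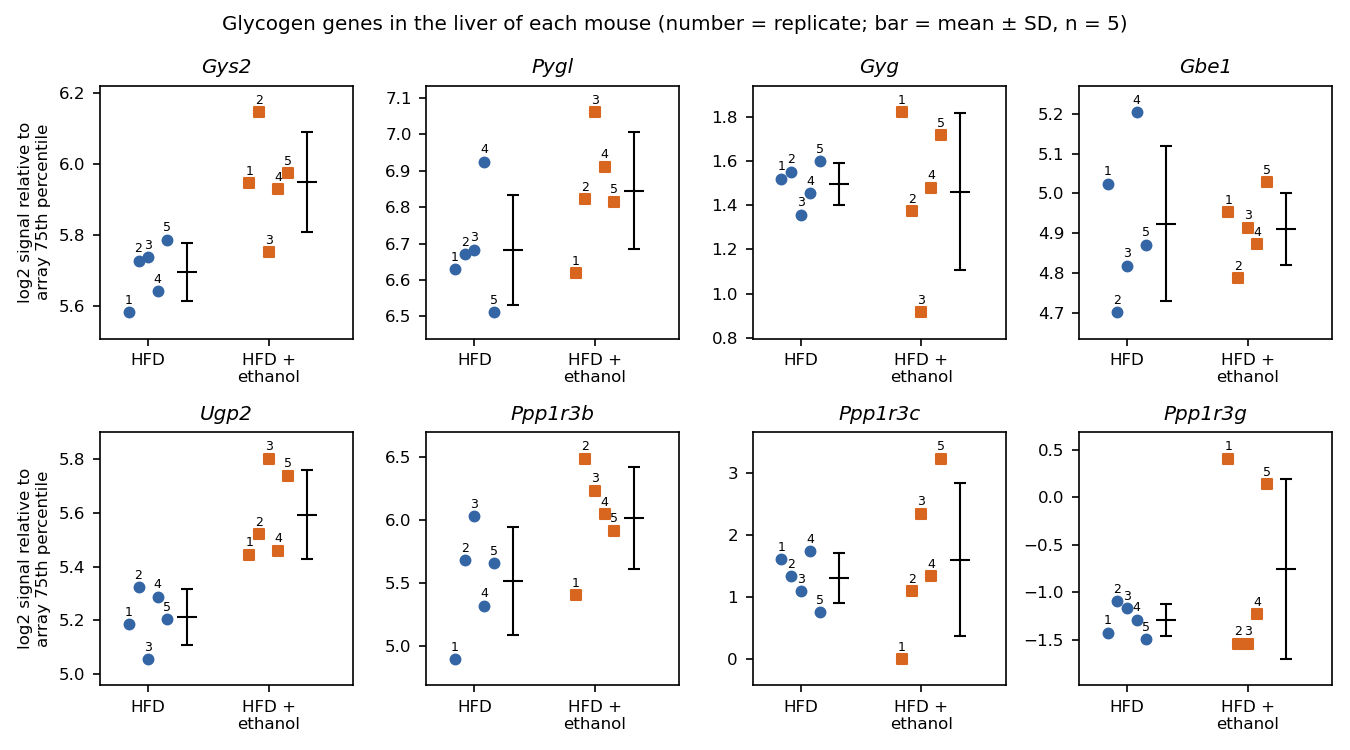
Each panel plots the log2 signal of 1 glycogen gene in every mouse (circles for the high-fat diet alone, squares for the diet with ethanol, digits for replicate numbers), with the mean and SD of 5 mice as a bar; each panel has its own vertical scale. The squares lie above all circles only for Ugp2, and for Ppp1r3c and Ppp1r3g they spread far wider than the circles.

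Promoter sequence was held for 6 of the 8 genes in the RefSeq table of build GRCm38.p6, as 7 promoters, with none for Gys2 and Ppp1r3b. Shown are the 250 bases before the start of Ugp2, the gene with separate groups, and of Ppp1r3c and Ppp1r3g, the regulatory subunits whose values spread most among ethanol mice. Ugp2 has a second listed start, which is not shown. Capitals mark matches, on either strand, to the E-box CACGTG, the CCAAT box CCAAT, the GC box GGGCGG, the cyclic AMP response element TGACGTCA, the forkhead site GTAAACA and the TATA box TATAAA. None of these motifs contains another.
Ugp2, chr11:21371268-21371517, minus strand: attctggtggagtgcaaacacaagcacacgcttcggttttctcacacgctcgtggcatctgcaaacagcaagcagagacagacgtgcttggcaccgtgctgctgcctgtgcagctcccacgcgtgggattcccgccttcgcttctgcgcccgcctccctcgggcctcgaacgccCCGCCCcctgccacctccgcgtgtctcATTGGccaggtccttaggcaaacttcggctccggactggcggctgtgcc
Ppp1r3c, chr19:36736605-36736854, minus strand: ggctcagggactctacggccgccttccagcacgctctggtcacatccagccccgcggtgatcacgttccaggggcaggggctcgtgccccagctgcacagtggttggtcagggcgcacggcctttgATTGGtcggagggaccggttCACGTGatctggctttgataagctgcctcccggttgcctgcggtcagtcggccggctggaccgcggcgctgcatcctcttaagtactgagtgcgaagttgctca
Ppp1r3g, chr13:35967656-35967905, plus strand: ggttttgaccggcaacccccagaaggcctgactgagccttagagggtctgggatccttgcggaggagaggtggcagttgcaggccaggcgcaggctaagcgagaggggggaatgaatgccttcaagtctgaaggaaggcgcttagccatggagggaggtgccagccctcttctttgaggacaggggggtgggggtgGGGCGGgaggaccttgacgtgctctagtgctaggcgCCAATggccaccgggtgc

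The letters CACGTG were in 1 of the 7 promoters, that of Ppp1r3c, and in 6.02% of all 32851 promoters of the same length. In Ppp1r3c they lay 104 to 99 bases before the start and, being their own reverse complement, read the same on both strands. CCAAT was in 3 of the 7 (Ugp2, Ppp1r3c and Ppp1r3g) and in 33.8% of all promoters, and GGGCGG was in 5 of the 7 and in 32.7%. TGACGTCA, GTAAACA and TATAAA were in none of the 7 and in 1.55%, 3.17% and 12.4% of all promoters. These matches describe the letters in this window only.

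Ugp2 makes the sugar donor from which glycogen is built. Its log2 signal was 5.19, 5.32, 5.06, 5.29 and 5.20 in control replicates 1 to 5 and 5.44, 5.52, 5.80, 5.46 and 5.74 in ethanol replicates 1 to 5. Every ethanol value lay above every control value, with ethanol replicates 3 and 5 the highest. The means were 5.21 ± 0.10 (SD, n = 5) and 5.59 ± 0.17 (SD, n = 5), a log2 fold change of 0.38 ± 0.09 (SE). This is 1.30-fold, with a 95% interval from 1.13-fold to 1.50-fold before any adjustment. Ugp2 ranked 163 by p among all genes and did not pass after adjustment (limma adjusted p = 0.195). A model blocked by slide gave 0.26 (limma unadjusted p = 0.0619), and slides 1 and 3 taken alone gave 0.21 and 0.30. Slide 1 holds a single ethanol array.

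Gys2 encodes the liver synthase, the enzyme that sets the rate of glycogen assembly. Its log2 signal was 5.58, 5.73, 5.74, 5.64 and 5.79 in control replicates 1 to 5 and 5.95, 6.15, 5.75, 5.93 and 5.97 in ethanol replicates 1 to 5. Ethanol replicate 3 lay inside the control range, and the other 4 ethanol mice lay above it. The means were 5.69 ± 0.08 (SD, n = 5) and 5.95 ± 0.14 (SD, n = 5). The log2 fold change was 0.25 ± 0.08 (SE), or 1.19-fold with a 95% interval from 1.05-fold to 1.36-fold, and it did not pass (limma adjusted p = 0.289). Blocking by slide gave 0.22 (limma unadjusted p = 0.103), and slides 1 and 3 taken alone gave 0.21 and 0.23.

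Pygl, the phosphorylase that opposes Gys2, had log2 signals of 6.63, 6.67, 6.68, 6.93 and 6.51 in control replicates 1 to 5 and 6.62, 6.82, 7.06, 6.91 and 6.82 in ethanol replicates 1 to 5. The groups overlapped, with 1 ethanol mouse (replicate 3) above the highest control mouse. The log2 fold change was 0.16 ± 0.10 (SE, limma adjusted p = 0.491), with a 95% interval from -0.06 to 0.39. Blocking by slide gave 0.17, and slides 1 and 3 taken alone gave 0.19 and 0.16. It was 0.044 after quantile normalization, 0.098 in a model with a term for array column (the position across the slide) and 0.11 without ethanol replicate 3. To ask whether the transcripts of synthase and phosphorylase shifted unequally, the log2 signal of Gys2 minus that of Pygl was taken in each mouse. Its mean was -0.99 ± 0.20 (SD, n = 5) for control mice and -0.90 ± 0.26 (SD, n = 5) for ethanol mice. The groups differed by 0.09, less than the SD among mice (exact two-sided permutation test, p = 0.516, where the smallest possible p is 0.00794). An unequal shift of the pair was not detected with 5 mice per group.

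The enzymes that start and branch the particle had nearly equal group means. Gyg, the protein primer, had log2 signals of 1.52, 1.55, 1.36, 1.45 and 1.60 in control replicates 1 to 5 and 1.82, 1.37, 0.91, 1.48 and 1.72 in ethanol replicates 1 to 5. The control mice were close together, while the ethanol mice reached both above and below them. Its log2 fold change was -0.04 ± 0.15 (SE, limma adjusted p = 0.937), with a 95% interval from 0.77-fold to 1.24-fold. A dimmer probe of Gyg gave -0.11 ± 0.18 (SE). Slides 1 and 3 taken alone gave -0.05 and -0.09.

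Gbe1, the branching enzyme, had log2 signals of 5.02, 4.70, 4.82, 5.20 and 4.87 in control replicates 1 to 5 and 4.95, 4.79, 4.91, 4.87 and 5.03 in ethanol replicates 1 to 5. All 5 ethanol values fell inside the control range. The log2 fold change was -0.01 ± 0.10 (SE, limma adjusted p = 0.963). The 95% interval ran from 0.85-fold to 1.16-fold. A dimmer probe of Gbe1 gave -0.09 ± 0.11 (SE). Slides 1 and 3 taken alone gave -0.17 and 0.22 for Gbe1. The sign of both genes changed with the processing: the model with array column gave 0.17 for Gyg and 0.12 for Gbe1. Without ethanol replicate 3 that of Gyg was 0.10, and without control replicate 4 that of Gbe1 was 0.06.

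Of the 3 phosphatase targeting subunits, Ppp1r3c and Ppp1r3g had a larger SD among ethanol mice, and Ppp1r3b did not (0.41 against 0.43 among control mice). Ppp1r3b encodes the subunit known as GL, the main form in liver. Its log2 signal was 4.90, 5.68, 6.03, 5.32 and 5.66 in control replicates 1 to 5 and 5.40, 6.49, 6.24, 6.05 and 5.92 in ethanol replicates 1 to 5. Of the ethanol mice 3 lay above all controls, and replicate 1 lay among the lower controls. The log2 fold change was 0.50 ± 0.24 (SE), or 1.41-fold with a 95% interval from 0.98-fold to 2.04-fold, and it did not pass (limma adjusted p = 0.39). Blocking by slide gave 0.43, and slides 1 and 3 taken alone gave 0.56 and 0.33. The model with array column gave 0.09, and leaving out column 1 gave 0.27. That column held only the arrays of ethanol replicates 2 and 3, which gave the highest Ppp1r3b signals of all.

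Ppp1r3c encodes the subunit called protein targeting to glycogen. Its log2 signal was 1.62, 1.34, 1.09, 1.74 and 0.76 in control replicates 1 to 5 and 0.0034, 1.10, 2.35, 1.34 and 3.24 in ethanol replicates 1 to 5. The ethanol mice held both the lowest value (replicate 1) and the highest values (replicates 5 and 3) of the 10. The highest was 9.43-fold the lowest among ethanol mice, against 1.97-fold among controls. The group means were 1.31 ± 0.40 (SD, n = 5) and 1.61 ± 1.24 (SD, n = 5). The log2 fold change was 0.29 ± 0.51 (SE, limma adjusted p = 0.821), with a 95% interval from 0.56-fold to 2.71-fold. Blocking by slide gave 0.22, and slides 1 and 3 taken alone gave 0.09 and 0.33. It turned to -0.11 without ethanol replicate 5 and to -0.084 in the model with array column, and it was 0.69 without ethanol replicate 1.

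Ppp1r3g encodes a further subunit, known from mouse liver for levels that vary between feeding and fasting. Its log2 signal was -1.43, -1.10, -1.17, -1.29 and -1.49 in control replicates 1 to 5 and 0.41, -1.54, -1.54, -1.23 and 0.13 in ethanol replicates 1 to 5. Ethanol replicates 1 and 5 stood above all other mice, while ethanol replicates 2 and 3 lay just below the lowest control. The probe was well above background on all 10 arrays. The log2 fold change of 0.54 ± 0.38 (SE, limma adjusted p = 0.532) thus averaged 2 mice above the control range with 1 inside it and 2 just below it, and its 95% interval ran from 0.81-fold to 2.62-fold. Blocking by slide gave 0.33, and slides 1 and 3 taken alone gave 0.16 and 0.46. The model with array column gave 0.88, and leaving out column 1 gave 1.07. It was 0.25 without ethanol replicate 1 and 0.32 without ethanol replicate 5.

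Markers of other cells and liver zones were set beside these values. Of the 5 listed bile duct cell markers 3 were tested, all with a lower mean with ethanol and none past the threshold, and Krt7 and Epcam were not kept. The log2 of the summed signals of the 3 tested was 4.00 in both ethanol replicates 1 and 5. It was 1.81, 1.67 and 2.22 in ethanol replicates 2, 3 and 4, with controls from 3.14 to 4.77. Spp1 alone carried most of that sum, at 3.96, 1.66, 1.43, 2.08 and 3.94 in ethanol replicates 1 to 5. Sox9, at -1.57, -1.95, -1.30, -1.49 and -1.13, did not set replicates 1 and 5 apart. Krt19 was at -3.13, -3.24, -3.56, -3.98 and -2.72, with replicate 1 close to replicate 2. All 6 periportal hepatocyte markers were tested and none passed. The log2 of their summed signals was 8.74 and 8.61 in ethanol replicates 1 and 5. It ran from 9.19 to 9.56 in the other 3, with controls from 8.77 to 9.43. Gls2, an enzyme of glutamine breakdown, was at 3.56 and 3.72 in ethanol replicates 1 and 5 and at 5.59, 5.17 and 5.54 in ethanol replicates 2, 3 and 4. Hal and Sds, enzymes of histidine and serine breakdown, were likewise lower in replicates 1 and 5 than in the other 3, as was Ass1. Pck1 was at 5.99 in ethanol replicate 1, close to 6.16 in replicate 4. Cyp2f2, at 7.95, 8.08, 7.90, 7.89 and 7.74, did not set replicate 1 apart. Outside this list Tat, Oat, Cyp1a2 and Cyp2e1 were lower in ethanol replicates 1 and 5 as well. The hepatocyte markers Alb, Apoa1, Ttr and Serpina1c and the pericentral markers Glul, Lgr5 and Axin2 were not. The bile duct and periportal lists were not alone in setting ethanol replicates 1 and 5 apart. Among ethanol mice, these had the highest log2 sums of stellate cell (6.27 and 6.33) and Kupffer cell markers (6.21 and 5.72). Lymphocyte markers, at 2.11 and 2.49, were highest in them too. The other 3 reached 6.14, 5.69 and 1.99, in that order. Adipocyte, pericentral and pancreas markers were lowest in ethanol replicates 1 and 5. Hepatocyte, endothelial, erythroid and muscle markers did not set this pair apart. The part of these cells, and of the array's position, in the Ppp1r3g values was not tested.

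The spread among mice was then described for each gene by the SD of the log2 signal in each group. The ethanol SD was the larger for 6 of the 8 glycogen genes, and for 59.4% of all genes tested. For Ppp1r3g it was 5.68 times the control SD (0.95 against 0.17), and 0.616% of all genes had a ratio at least as high. For Gyg the ratio was 3.79, reached by 2.62% of genes, and for Ppp1r3c 3.12, reached by 4.97% of genes. The ratio was under 1 for Gbe1 (0.46) and Ppp1r3b (0.95). These ratios were singled out after the values were seen and carry no test.

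**Figure D2:**
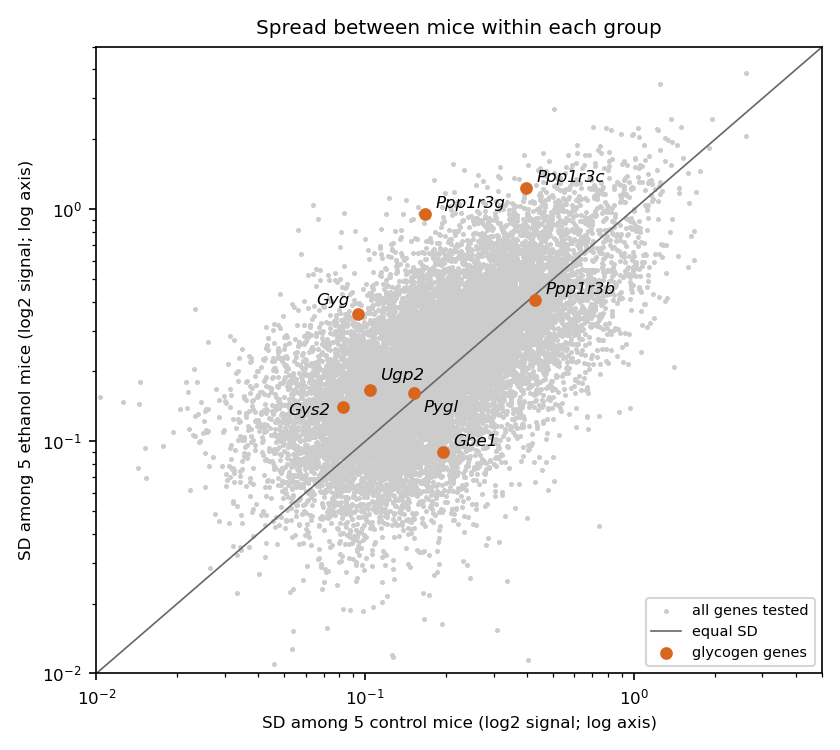
The SD of the log2 signal among 5 ethanol mice (vertical, log axis) is plotted against that among 5 control mice (horizontal, log axis) for all genes tested (grey) and the 8 glycogen genes (orange), with a line of equal SD. Ppp1r3g, Ppp1r3c and Gyg lie far above the line and Gbe1 lies below it.

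Shared variation of the 8 genes within the groups was not detected with 10 mice. Over 28 pairs, correlations of log2 signals centred on their group means were tested by permuting mice within groups (10 mice, 100000 permutations). None passed adjustment (smallest adjusted p = 0.44 for Pearson's r and 0.364 for Spearman's rho), and an unadjusted p under 0.05 was reached by 2 pairs for r and by 3 for rho. Ugp2 and Ppp1r3c had r = 0.76 (permutation p = 0.0369) and rho = 0.72 (permutation p = 0.047), and r was 0.60 without the 2 mice farthest from the median of Ugp2. Pygl and Gyg had r = -0.72 (permutation p = 0.0219) and rho = -0.76 (permutation p = 0.022), and r was -0.65 without the 2 mice farthest from the median of Pygl. Gbe1 and Ppp1r3b had rho = -0.76 (permutation p = 0.026) but r = -0.62 (permutation p = 0.078), and r was -0.81 without the 2 mice farthest from the median of Gbe1. The largest r of all pairs was that of Gyg and Ppp1r3g, at 0.78 (permutation p = 0.0725), with rho = 0.68 (permutation p = 0.105). Without the 2 mice farthest from the median of Gyg it was 0.63.

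Across all genes, likeness was measured as the highest Pearson r of group-centred log2 signals over the 10 arrays. The closest gene was Shisa6 for Ugp2 (r = 0.96), Cnn3 for Gys2 (r = 0.96), Copb1 for Pygl (r = 0.96), Tectb for Gyg (r = 0.98) and Tbc1d10b for Gbe1 (r = 0.97). For the targeting subunits it was Crygn for Ppp1r3b (r = 0.98), Ninl for Ppp1r3c (r = 0.92) and Anapc15 for Ppp1r3g (r = 0.97). Each was picked as the highest of all genes, so these values are descriptions without a test.

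**Figure D3:**
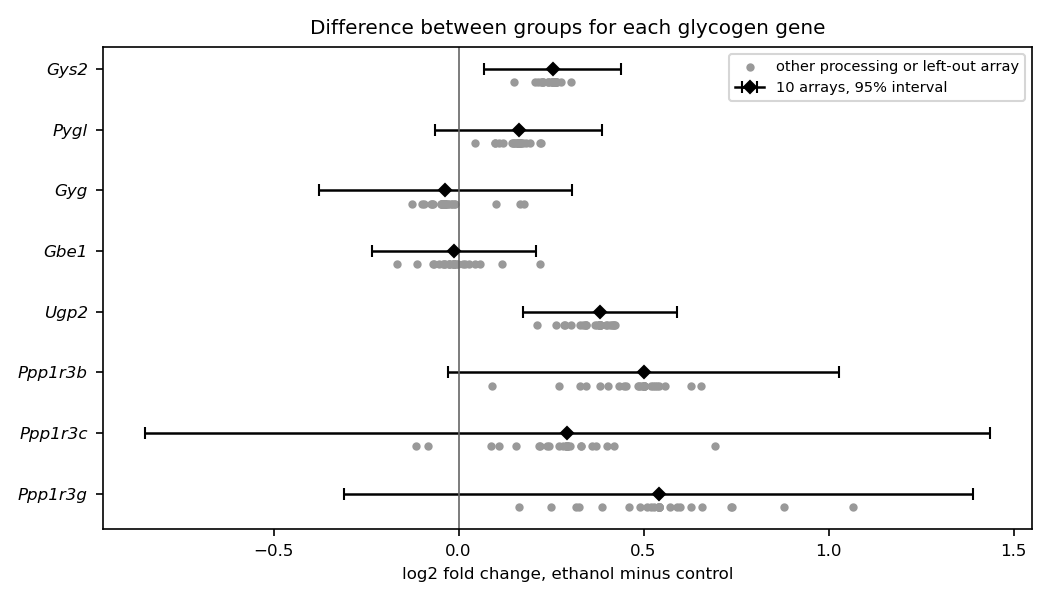
Black diamonds show the log2 fold change (ethanol minus control) of each glycogen gene with its 95% interval from 10 arrays, and grey points show the same value under each other processing or with 1 array left out. The intervals of Gys2 and Ugp2 lie above 0 before adjustment, and the grey points of Gyg, Gbe1 and Ppp1r3c fall on both sides of 0.

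The surrounding pathway was read from a list of 39 other genes, of which 36 were tested; Ppp1r3a, Ppp1r3f and Epm2a were too dim. None of the 36 passed the limma threshold after adjustment. At an unadjusted p under 0.05, 6 were higher and 2 lower with ethanol, where 7.98% and 5.3% of all genes were. Those 8 became 3 without control replicate 1 and 5 without control replicate 4 or 5. Over all genes the count was 2003, and 1266, 1493 and 1475 without control replicates 1, 4 and 5. When blocked by slide, 1 of the list was left, and 805 over all genes. The groups lay apart for 2 of the 36 that were higher with ethanol and for 1 that was lower. Over all genes the shares were 1.94% and 1.11%. The median log2 fold change of the list was 0.10, beside 0.03 for all genes. Of the list, 26 of 36 genes were higher, against 56.4% of all genes. With quantile normalization 21 of 36 were higher, and the median of all genes was -0.011.

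Among the other enzymes 3 of 6 had a higher mean (2 of 6 after quantile normalization). Pgm1, which interconverts glucose 1-phosphate and glucose 6-phosphate, had 0.04 ± 0.09 (SE) and -0.092 after quantile normalization. Pgm2 had -0.33 ± 0.15 (SE), which was -0.35 when blocked by slide, -0.77 within slide 1 and -0.0060 within slide 3. Gys1, the synthase of muscle and other tissues, had 0.11 ± 0.07 (SE). The brain phosphorylase Pygb had -0.22 ± 0.46 (SE), which turned to 0.37 when blocked by slide and was -0.90 within slide 1 and 1.43 within slide 3. The muscle phosphorylase Pygm had 0.58 ± 0.28 (SE), which turned to -0.11 when blocked by slide and was 0.21 within slide 1 and -0.37 within slide 3. Of the other muscle markers Tnnt3 was tested, at 0.29 ± 0.12 (SE, limma adjusted p = 0.342), and Ckm, Acta1 and Myh4 were too dim.

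Among the genes of glucose entry and release was the highest log2 fold change of the list. G6pc, the glucose 6-phosphatase that releases glucose into the blood, had 3.89, 4.00, 4.58, 4.48 and 4.03 in control replicates 1 to 5 and 4.33, 4.64, 5.89, 5.06 and 7.32 in ethanol replicates 1 to 5. Ethanol replicate 5 was highest, as it was for Ppp1r3c. Its log2 fold change was 1.25 ± 0.49 (SE, limma adjusted p = 0.328), 0.80 within slide 1 and 1.55 within slide 3. Without ethanol replicate 5 it was 0.78. Slc37a4, which carries glucose 6-phosphate to that enzyme, had 0.45 ± 0.14 (SE, limma adjusted p = 0.26).

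Of 12 phosphatase, GSK3 and phosphorylase kinase genes 7 had a higher mean (6 after quantile normalization), and their log2 fold changes ran from -0.44 to 0.46. Gsk3b, a kinase that inactivates the synthase, had a log2 fold change of -0.02 ± 0.13 (SE). The liver subunits of phosphorylase kinase, Phka2 and Phkg2, had -0.03 ± 0.10 (SE) and -0.0010 ± 0.09 (SE). The sign of these 3 kinase genes changed between settings: within slide 1 they had 0.035, 0.10 and 0.12. Ppp1r3e, another targeting subunit, had 0.46 ± 0.19 (SE), or 0.17 with normexp and 0.053 within slide 3, and was named after its value was seen. On 1 of the 5 control arrays its spot was not well above background. All 9 genes of insulin, glucagon and adrenergic signalling had a higher mean, from 0.05 to 0.34, where 56.4% of all genes did. Fewer did in other settings: 7 of 9 after quantile normalization, 6 of 9 when blocked by slide and 5 of 9 within slide 3. Akt2, a kinase downstream of the insulin receptor, had 0.21 ± 0.08 (SE, limma adjusted p = 0.318). Its groups did not overlap, against 1.94% of all genes that were apart and higher with ethanol. Akt2 had 0.15 when blocked by slide, 0.20 within slide 1, 0.10 within slide 3 and 0.13 as the mean of its kept probes.

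Glycogen is also degraded in lysosomes. Gaa, the lysosomal acid glucosidase, had 4.58, 4.71, 4.62, 4.77 and 4.60 in control replicates 1 to 5 and 4.81, 5.01, 4.89, 4.91 and 4.83 in ethanol replicates 1 to 5. The groups did not overlap, against 1.94% of all genes that were apart and higher with ethanol. Its log2 fold change was 0.23 ± 0.07 (SE, limma adjusted p = 0.25), 0.14 after quantile normalization, 0.22 within slide 1 and 0.17 within slide 3. Stbd1, a protein that tethers glycogen to membranes, had 0.37 ± 0.14 (SE, limma adjusted p = 0.318), 0.60 within slide 1 and 0.35 within slide 3.

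**Figure D4:**
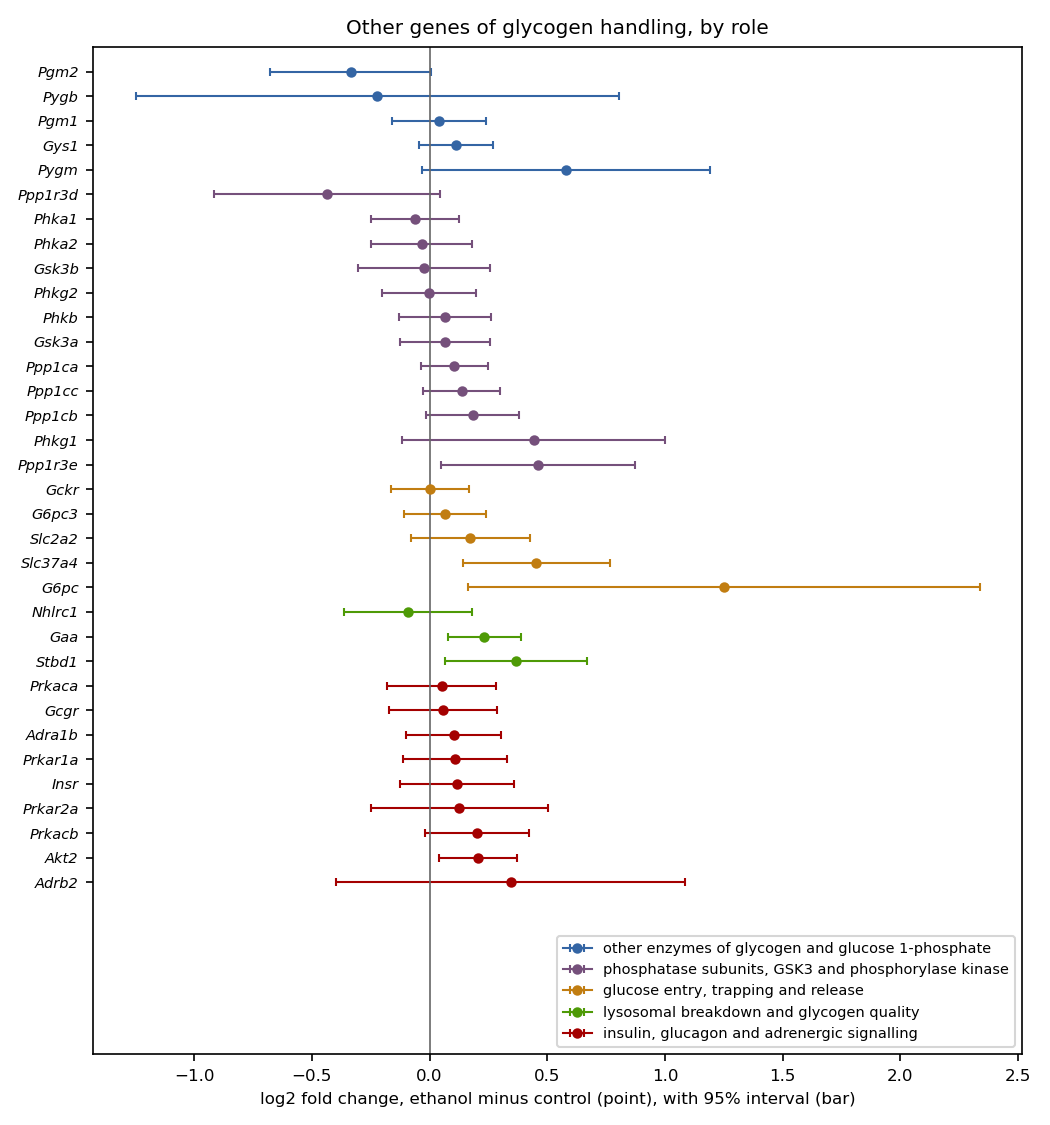
Points give the log2 fold change (ethanol minus control) of 34 of the 36 other genes of glycogen handling, coloured by role, with 95% intervals as bars. G6pc lies farthest to the right, and all 9 genes of hormone signalling lie right of 0 in this processing (7 of 9 after quantile normalization).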

How the data were processed

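The authors deposited 1 scanner table per array, with spot intensities on a linear scale and 0 or 1 quality flags, made per the file headers with Agilent Feature Extraction 10.7.3.1 from a design on build mm9. Per the labels' protocols, 150 ng of liver RNA was amplified and labelled with Cy3. The authors also deposited 1 table on a log2 scale. Over 27810 bright probes its differences between arrays match those of the scanner values in scale and direction, up to a constant per array (r and slope of 1 on each array). Its centring stays unknown. The log2 fold change of Gys2 was 0.242 in that table and 0.255 from the scanner values. Its column medians were -0.12, 0.08, 0.02, -0.07 and -0.07 for control and 0.02, -0.0036, -0.01, -0.0020 and 0.05 for ethanol replicates 1 to 5.

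Control and outlier spots were left out. Processed signals were scaled to each array's 75th percentile (279.9 to 387.4 signal units), floored at 4 signal units and taken to log2. Probes well above background on at least 4 arrays of 1 group were kept (31111 of 56605). RefSeq accessions (GRCm38.p6, names only) gave 1 symbol for 32994 probes and none for 23611, and the brightest kept probe stood for a gene. Ethanol and control arrays entered lmFit and eBayes (limma 3.58.1, R 4.3.3), with Benjamini-Hochberg adjustment over 15089 genes, a threshold of 0.05 and moderated SE. The fit was tested on simulated data. Likeness, pairs and Gys2 minus Pygl used the same values.

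The rule for named genes took all 8 members and, of the wider list, any gene past the threshold, the 4 smallest p and 14 genes listed by name; 2 genes of that list are not reported here. The members and lists were chosen with earlier results of these data known. Each sample is 1 animal. Alternatives covered background correction, normalization, floor, filter, probe choice, slide, array column, replicate block, eBayes settings and left-out arrays. The number of arrays limits the precision.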

Additional observations from a re-analysis of the deposited data

Results flagged for a closer look

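Among 88 sets of 5 mice, 4 held a mouse whose gap to its nearest neighbour took more than 0.71 of the set's whole range, and chance gives about 1 in 20. None was a glycogen enzyme or targeting subunit named at the start. G6pc3, a broadly expressed glucose 6-phosphatase, was at 1.66 in control replicate 4, below the next control at 1.79. Slc2a2, the liver glucose transporter, was at 2.33 in ethanol replicate 3, below the next at 2.65. Insr, the insulin receptor, was at -0.57 in control replicate 2, above the next at -0.97. Prkar1a, a regulatory subunit of protein kinase A, was at 3.48 in ethanol replicate 1, below the next at 3.62.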

How the results depend on the processing

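None of the 8 glycogen genes and none of the wider list passed limma's adjusted threshold in any of the 28 alternative fits. Gys2, Pygl, Ugp2, Ppp1r3b and Ppp1r3g stayed above 0 in all 28. Ugp2 lay between 0.21 and 0.42 (smallest limma adjusted p = 0.0838) and Gys2 between 0.15 and 0.30. The changes of floor, filter and probe choice, the eBayes trend options and the replicate block left the log2 fold changes of these genes as they were. Those fits were therefore no check on the sign. At an unadjusted p under 0.05 there were 2 of the 8, but 0 when blocked by slide and 1 after quantile normalization or with a term for array column. There were 3 with normexp, with slide as a random block, with array weights and without column 1. Leaving out control replicate 3, control replicate 4 or ethanol replicate 1 gave 3 as well. The 8 such genes of the wider list became 1 when blocked by slide or with array column and 5 after quantile normalization. They became 12 with slide as a random block or without control replicate 2, and 16 with array weights. The same count over all genes moved too. It was 2003 in the main fit, 805 when blocked by slide, 866 with array column and 1932 after quantile normalization. With slide as a random block it was 3031, without control replicate 2 it was 2612 and with array weights 3011. It was 1880 with normexp and 1624 without column 1. Over all genes the count past the adjusted threshold was 3. It became 7 with normexp on median signals, with an intensity trend in eBayes and with trend and robust estimation, 12 with slide as a random block and 15 with array weights. It became 0 without a filter on dim probes, with slide as a fixed block, within slide 1, within slide 3, with array column and with the replicate block. With 1 array left out it ran from 0 (without control replicate 4 or 5 or ethanol replicate 1) to 7 (without ethanol replicate 4), and it was 1 without ethanol replicate 2. Where it was 0, from 677 to 2443 genes had an unadjusted p under 0.05 in limma. Gyg turned to 0.17 with array column and 0.18 without column 1, and ran from -0.13 to 0.10 with 1 array left out. Gbe1 turned to 0.044 with slide as a fixed block, 0.22 within slide 3, 0.12 with array column and 0.027 without column 1, and ran from -0.069 to 0.057 with 1 array left out. Ppp1r3c turned to -0.084 with array column and ran from -0.11 to 0.69 with 1 array left out. The cause of these changes was not tested. Gys2 minus Pygl ran from 0.019 to 0.20 in 18 alternatives. Whether the replicate numbers pair mice is not stated in the labels and was not settled by the values. Same-numbered arrays had correlations of their deviations from -0.11 to 0.32, above 0.1 in 3 of 5 pairs. Of the 5 ethanol arrays, 2 correlated best with their own number. The replicate block left each log2 fold change as it was, and 3 of the 8 genes then had an unadjusted p under 0.05. Over all genes that count rose as well, from 2003 in the main fit to 2443.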
